A study of Mus musculus with 72 samples.

Results

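A list of 10 marker genes of the alveolar type 1 cell was followed through normal-appearing lung and lung tumors of mice that lack Gprc5a. The list held Ager, Aqp5, Hopx, Pdpn, Igfbp2, Cav1, Rtkn2, Emp2, Clic5 and Akap5, and a gene was taken where its symbol stood in the gene column. Of the 10 genes, 9 had a row among the 23930 rows of the count table. Hopx was not analysed here.

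Alveolar type 1 cells are the thin, flat cells that line most of the gas exchange surface of the lung. They lie on a shared basement membrane against the capillary endothelium, and they are renewed from alveolar type 2 cells, the cuboidal cells that make surfactant, through a transitional state with raised keratins and stress genes. Ager, the receptor for advanced glycation end products, and Aqp5, a water channel, stand on the surface of the mature cell. Pdpn, a membrane glycoprotein also made by lymphatic endothelium and mesothelium, and Emp2, a membrane protein with several spans, stand there too. Igfbp2 is a secreted protein that binds insulin-like growth factors, and in mice it marks alveolar type 1 cells of the mature lung. Cav1 is the coat protein of caveolae, the small pits in the membrane that are abundant in alveolar type 1 cells and in endothelium. Rtkn2 is a signaling protein inside the cell, Clic5 belongs to the chloride intracellular channel proteins and joins the actin skeleton, and Akap5 anchors protein kinase A.

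All 39 mice carried the Gprc5a-/- genotype, and Gprc5a is a lung tumor suppressor of mice. Normal-appearing lung was taken at baseline, before any NNK, a carcinogen of tobacco smoke, from 10 mice at 8 weeks of age. It was also taken after NNK from 10 mice at the end of exposure (16 weeks of age), from 9 mice 3 months later (28 weeks) and from 10 mice 7 months later (44 weeks). Tumors were dissected from the same lungs, giving 4 libraries from 3 mice at the end of exposure, 6 from 4 mice at 3 months and 23 from 9 mice at 7 months. Every group after baseline was both older and exposed, so age and NNK cannot be told apart, and no group carried an intact Gprc5a. In tissue like this, fewer cells of a type and less RNA per cell cannot be told apart either.

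The 72 libraries held 7459147 to 21822522 counts each and detected 15644 to 18645 genes. Gprc5a had 0 to 4 counts a library, with 0 in 41 of the 72. All 9 genes were counted in every library, with the fewest, 4 counts of Igfbp2, in a 7-month tumor. Of the normal lungs, 5 had more than 300 CPM of the heart muscle gene Myh6 (CPM is the level of a gene as its share of the library's counts, scaled by TMM), and 2 tumors had more than 200 CPM of the ciliated cell gene Foxj1. The Myh6-rich lungs were baseline replicates 1, 2 and 9, end-of-exposure replicate 1 and 3-month replicate 6. The assay reads 1 amplicon per gene, so a level compares libraries for a gene and not genes with each other.

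The starts of 4 of the genes are shown because these genes moved in opposite directions in tumors, Ager and Aqp5 up and Igfbp2 and Cav1 down. Each is the RefSeq promoter of build GRCm38.p6, from 250 bases before to 50 bases after the start, with GC boxes (GGGCGG, or CCGCCC on the other strand) in capitals, of which the Ager promoter held 0. Igfbp2 and Cav1 each have another promoter in the table, not shown, and each of these also held 0 GC boxes. The promoter of Ager lies at chr17:34597600-34597899 on the + strand, that of Aqp5 at chr15:99590778-99591077 (+), that of Igfbp2 at chr1:72824230-72824529 (+) and that of Cav1 at chr6:17306085-17306384 (+).
Ager: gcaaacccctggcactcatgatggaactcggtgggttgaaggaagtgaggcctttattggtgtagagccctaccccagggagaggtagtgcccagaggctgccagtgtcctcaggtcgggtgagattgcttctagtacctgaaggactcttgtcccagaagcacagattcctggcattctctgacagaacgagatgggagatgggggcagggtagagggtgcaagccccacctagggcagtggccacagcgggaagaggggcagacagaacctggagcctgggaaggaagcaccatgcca
Aqp5: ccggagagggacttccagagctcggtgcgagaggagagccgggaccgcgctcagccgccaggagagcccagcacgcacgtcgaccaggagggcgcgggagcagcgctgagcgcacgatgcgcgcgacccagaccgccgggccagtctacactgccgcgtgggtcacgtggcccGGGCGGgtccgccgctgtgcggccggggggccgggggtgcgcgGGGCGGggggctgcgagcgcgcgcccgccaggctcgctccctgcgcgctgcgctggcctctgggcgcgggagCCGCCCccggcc
Igfbp2: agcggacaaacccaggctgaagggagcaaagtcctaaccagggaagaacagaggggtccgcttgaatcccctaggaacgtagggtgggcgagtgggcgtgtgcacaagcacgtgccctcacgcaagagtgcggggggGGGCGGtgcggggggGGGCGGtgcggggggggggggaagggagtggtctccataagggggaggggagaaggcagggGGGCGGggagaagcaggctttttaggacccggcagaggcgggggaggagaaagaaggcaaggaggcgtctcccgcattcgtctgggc
Cav1: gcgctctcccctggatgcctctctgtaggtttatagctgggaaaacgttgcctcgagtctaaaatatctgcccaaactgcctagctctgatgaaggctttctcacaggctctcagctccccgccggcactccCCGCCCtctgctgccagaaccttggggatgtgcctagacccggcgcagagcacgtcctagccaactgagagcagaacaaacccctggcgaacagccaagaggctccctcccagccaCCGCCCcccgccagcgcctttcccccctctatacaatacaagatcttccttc
The promoter of Aqp5 had 79.7% G and C and 46 CpG, against a median of 52.7% and 7 CpG over the 32851 mouse promoters, and that of Ager had 58.3% and 4 CpG. A promoter was found for 9 of the 10 genes, 12 promoters in all, and none for Rtkn2. The GC box stood in 7 of the 12, and in 35.7% of all promoters. GC boxes were counted after the sequences had been read. The letters GGAATG, read by TEAD factors, stood in 0 of the 12 and in 14.7% of all promoters on either strand, and CAAGTG, read by NKX2-1, stood in 1 of the 12, a promoter of Hopx, and in 13.6% of all.

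In normal-appearing lung, Igfbp2 was higher 3 and 7 months after NNK than at baseline. The baseline level was 21.1 to 69.9 CPM (median 32.3, 10 mice) and that at the end of exposure 28.6 to 116 (median 49.5, 10 mice). At 3 months it was 43.2 to 134 CPM (median 74.9, 9 mice), and at 7 months 55.4 to 147 (median 83.7, 10 mice). The highest baseline lungs overlapped the lowest lungs of both later times. At 3 months the change from baseline was 1.19 ± 0.25 (log2 fold change ± SE throughout; edgeR quasi-likelihood test, p adjusted over all 14907 genes, 0.00699), a fold of 2.28. At 7 months it was 1.26 ± 0.25 (adjusted p 0.000901), a fold of 2.39. The end of exposure lay between, at 0.59 ± 0.25 (adjusted p 0.19), and did not pass the threshold of 0.05. Both later calls held in each of the 9 other settings of the analysis and without each of the 39 lungs.

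Ager rose at 7 months, less firmly. The 10 baseline lungs lay between 19.9 and 43.7 CPM (median 26.3) and the 10 lungs at 7 months between 18.7 and 90.5 (median 50.4). Of the 7-month lungs the lowest lay below every baseline lung, so the groups overlapped in full at the low end. The change was 0.82 ± 0.27 (adjusted p 0.0412). The call was lost with total counts, with no filter, with limma-voom, and when the Myh6-rich lungs were left out, where it was 0.72 ± 0.31 (adjusted p 0.142). It was also lost without baseline replicates 1, 2, 3, 5, 9 or 10 and without 7-month replicates 1, 7, 8 or 9, at 0.71 to 0.83 and an adjusted p of 0.0509 to 0.099.

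None of the 9 genes passed at the end of exposure by edgeR, DESeq2 or limma-voom (1, Igfbp2, at an unadjusted p under 0.05 by edgeR). Of all genes tested, 4.11% passed by edgeR (2.50% higher, 1.61% lower). At 3 months 1 gene passed, Igfbp2, against 1.72% of all genes (1.09% higher, 0.637% lower). At 7 months 2 passed, Igfbp2 and Ager, against 12.8% of all genes (7.52% higher, 5.31% lower). All 9 changes were above 0 at both later times. Their median was 0.39 at 3 months and 0.46 at 7 months, beside 0.01 and 0.02 over all genes tested. Of the 14907 genes tested, 7643 were above 0 at 3 months and 7741 at 7 months. A list of 12 endothelial markers had 11 and 10 above 0, and a list of 15 alveolar type 2 markers 9 and 14. The 7-month value of Rtkn2 changed sign in 6 other fits. Between the end of exposure and 3 months 0 of 9 passed by the same 3 tools (4 at an unadjusted p under 0.05 by edgeR). Of all genes, 1.01% passed there by edgeR (0.342% higher, 0.671% lower). Between 3 and 7 months 0 of 9 passed (0 at an unadjusted p under 0.05), against 0.0537% (0.0335% higher, 0.0201% lower).

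Pdpn showed its highest lungs at 3 months without passing. It lay between 14.4 and 69.4 CPM (median 49.9) at baseline and between 43 and 222 (median 65.5) at 3 months, overlapping in part. The change was 0.86 ± 0.25 (adjusted p 0.0586), and DESeq2 put it under the threshold (adjusted p 0.0241). The lung at 222 CPM, 3-month replicate 5, stood well above the next at 115, and without single other lungs (baseline replicate 7 or 3-month replicates 6, 7, 8 or 9) the adjusted p fell to between 0.0281 and 0.0439. Aqp5 at 7 months was likewise close, at 0.46 ± 0.18 (adjusted p 0.0746), with a median of 200 CPM against 157 at baseline. It passed with DESeq2 (adjusted p 0.048) and without the 2 lungs of the fewest counts (0.56, adjusted p 0.0277), as it did without baseline replicate 7 or 7-month replicates 2, 4 or 6 (adjusted p 0.0292 to 0.047). Akap5 at 7 months was at 0.66 ± 0.30 (adjusted p 0.139). Cav1 had 0.38, Clic5 0.36, Emp2 0.21 and Rtkn2 0.06 at that time, with adjusted p from 0.327 to 0.913.

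**Figure D1:**
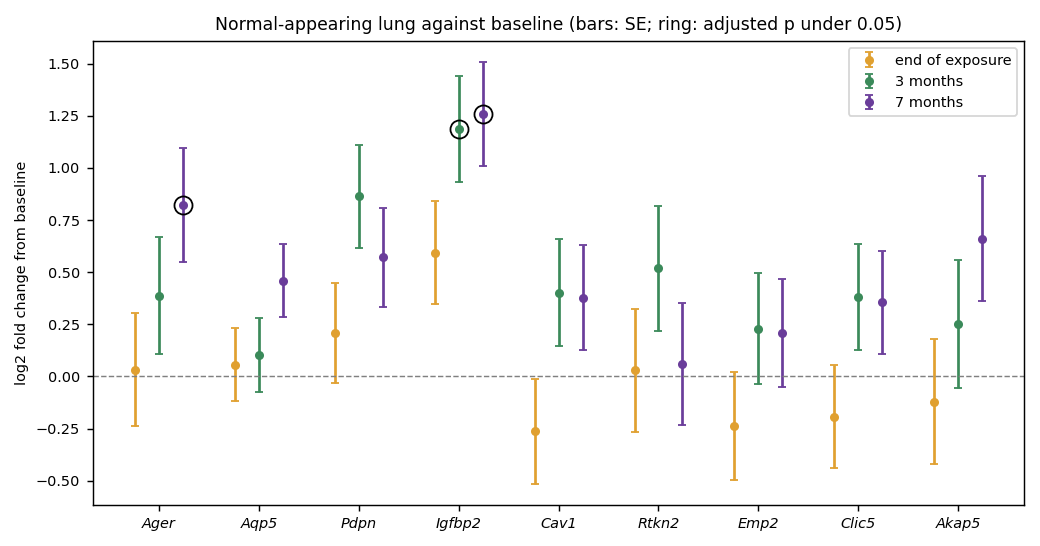
Log2 fold change from baseline (vertical axis) of each of the 9 genes in normal-appearing lung at the end of exposure, 3 months and 7 months after NNK. Points are edgeR estimates, bars are 1 SE, and rings mark an adjusted p under 0.05: Igfbp2 at 3 and 7 months (1.19 and 1.26) and Ager at 7 months (0.82).

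Other markers of alveolar type 1 cells, a list of 20 chosen beside these 9, moved in both directions. At 7 months 14 of the 20 lay above 0, with a median change of 0.31, and of the 5 that passed the test 2 were higher and 3 were lower than at baseline. Col4a3, a collagen chain of the alveolar basement membrane, rose by 0.91 ± 0.27 (adjusted p 0.0234), a call lost with total counts, limma-voom, without the Myh6-rich lungs and without 7-month replicates 7, 8 or 9 (adjusted p 0.0506 to 0.0639). Scnn1g, a subunit of the epithelial sodium channel, was lower at the end of exposure (-0.92 ± 0.19, adjusted p 0.00228), at 3 months (-0.79, adjusted p 0.0196) and at 7 months (-0.90, adjusted p 0.00154). The 3-month call of Scnn1g was lost without the Myh6-rich lungs (adjusted p 0.0809). Sec14l3 fell by 1.03 and Gramd2 by 0.87 at 7 months (adjusted p 0.00105 and 0.00148). Of the 13 genes of the YAP, TAZ and TEAD pathway, which takes part in alveolar type 1 cell fate, 0 passed at the end of exposure, 3 months or 7 months by edgeR (0, 1 and 1 at an unadjusted p under 0.05), and DESeq2 and limma-voom each called 0, 1 and 0.

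Markers of neighbouring cells moved in the same lungs. Of the 15 alveolar type 2 markers, 7 rose at 7 months and 0 fell by edgeR (median 0.73), with 10 and 0 by DESeq2 and 4 and 1 by limma-voom. Among the risen were Cxcl15 (1.43), Egfl6 (1.24), Il33 (2.15) and Slc34a2 (0.91), with adjusted p from 0.00161 to 0.0172. The call of Slc34a2 was lost without the Myh6-rich lungs (adjusted p 0.0862) and that of Il33 with limma-voom (adjusted p 0.0718). The summed level of that list ran from 14650 to 25720 CPM at baseline and from 15450 to 66700 at 7 months, and no gene of it was at 0. Of the 12 endothelial markers 1 rose, Vwf (1.18, adjusted p 0.0053), and 1 fell, Kdr (-0.53, adjusted p 0.0334), with a median of 0.42. The Kdr call was lost without the 2 lungs of the fewest counts and without baseline replicates 3, 5 or 8 or 7-month replicates 5, 7, 8, 9 or 10 (adjusted p 0.0516 to 0.105). Their summed level was 1048 to 2662 CPM at baseline and 1387 to 3886 at 7 months. Transitional genes were raised earlier: of 13 measured, 4 rose at the end of exposure, among them Cdkn1a (2.14), Areg (2.21) and Lgals3 (1.19), with adjusted p of 6.05e-05 or less. At 7 months 3 of the 13 were higher and 1 lower, Krt19 (-0.79, adjusted p 0.00376). Heart muscle genes were lower at 7 months in 4 of 7 tested (median -1.49), with summed levels of 241 to 5905 CPM at baseline and 168 to 1230 at 7 months. All 4 calls were lost without the Myh6-rich lungs (adjusted p 0.224 to 0.588). Those lungs were chosen by Myh6, a gene of this list, and include baseline lungs, so the choice itself favored that loss. Of 13 leukocyte genes tested 5 rose at 7 months (median 0.76), among them Marco (2.45) and Itgax (1.09), genes of alveolar macrophages, with adjusted p 0.000162 and 0.000752. Their summed level was 186 to 358 CPM at baseline and 343 to 861 at 7 months. Of 11 fibroblast and smooth muscle genes 5 fell (median -0.81), among them Col1a1 (-1.20) and Col3a1 (-1.18), with adjusted p 0.000213 and 0.000992, and summed levels of 1423 to 3289 CPM at baseline and 1250 to 2500 at 7 months. The part of any of these lists in the changes of Igfbp2 and Ager was not tested. The fits without the Myh6-rich lungs do not test it, since they also lack baseline replicates 1, 2 and 9. In those fits edgeR called 1160 of 14959 genes at 7 months, against 1912 of 14907 with all lungs.

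The mouse names begin with F in 20 lungs and M in 19, letters that the labels do not define. With time in the fit, 1 of the 9 genes differed between the letters, Aqp5, against 18.4% of all genes (8.70% higher, 9.67% lower). The lungs with F had 104 to 223 CPM (median 152), and those with M 117 to 395 (median 197). The M range took in most of the F range and reached well above it. The difference, M minus F, was 0.37 ± 0.11 (adjusted p 0.0192). Aqp5 passed in every setting run for this comparison, at 0.28 with total counts. The other 8 genes ran from -0.36 for Rtkn2 to 0.15 for Clic5, with adjusted p from 0.222 to 0.972.

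**Figure D2:**
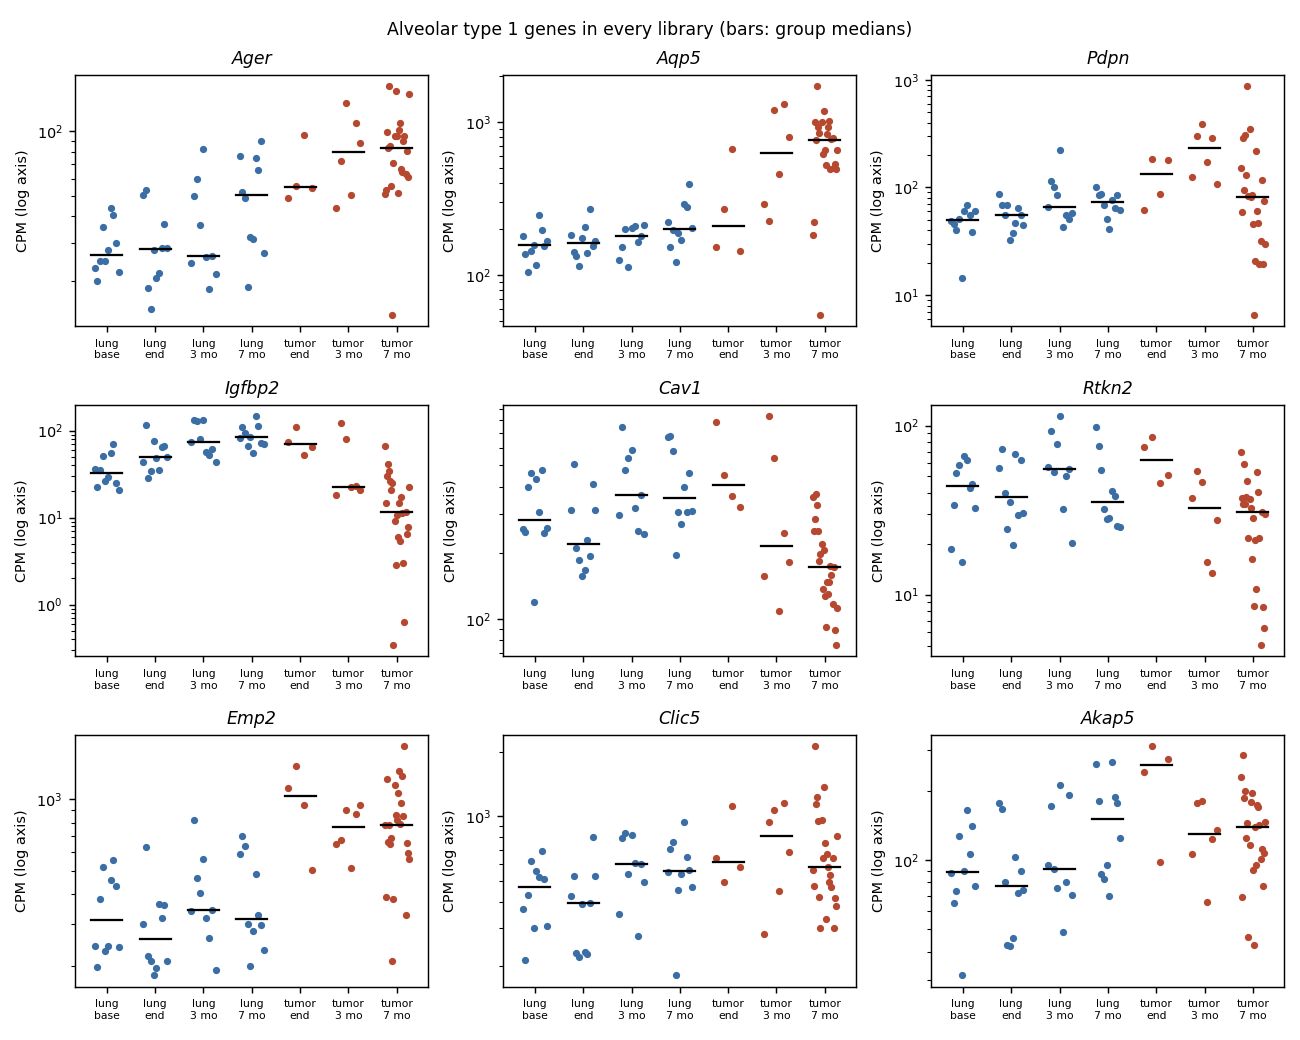
Level of each of the 9 genes in CPM on a log axis in every library, with normal lung in blue and tumors in red. Points are libraries, and horizontal bars are group medians. Aqp5 medians rise from 200 CPM in 7-month lung to 763 in 7-month tumors, and Igfbp2 medians fall from 83.7 to 11.6.

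Tumors did not carry a uniform loss or gain of these genes: 5 of the 9 were higher than in the lung of the same mouse and 3 were lower, on average over the 16 mice. For each mouse the counts of its tumors were summed and set against its own normal lung, with the mouse as a block. Aqp5, Pdpn, Emp2, Ager and Clic5 were the higher genes, Igfbp2, Cav1 and Rtkn2 the lower ones, and Akap5 did not pass. By this average 49.7% of all 15457 genes tested passed (24.3% higher, 25.4% lower), so the count of 8 says little of these genes in particular. At the end of exposure, with 3 mice, 0 of 9 passed by edgeR (2 at an unadjusted p under 0.05), against 4.61% of all genes (1.97% higher, 2.65% lower). By limma-voom 0 of 9 passed, where it called 976 of all 15457 genes. By DESeq2 1 passed, Emp2, where it called 1975 of all 15457 genes. At 3 months, with 4 mice, 4 passed by edgeR against 19.7% (9.52% higher, 10.2% lower). At 7 months, with 9 mice, 7 passed by edgeR against 37.8% (18% higher, 19.8% lower).

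The largest rise on average was that of the water channel Aqp5. Its 39 normal lungs ran from 104 to 395 CPM. The 4 tumors at the end of exposure had 152, 270, 666 and 144 CPM. The 6 at 3 months had 227 to 1312 (median 632), and the 23 at 7 months 55 to 1726 (median 763). Of the 33 tumors 25 lay above all 39 lungs, and 1 lay below all of them. The ratio of tumor to own lung was above 1 in 15 of 16 mice, with a median of 3.73 and a range of 0.851 to 8.1. The change was 1.93 ± 0.37 at 3 months (adjusted p 0.00331), 1.80 ± 0.25 at 7 months (adjusted p 7.74e-05) and 1.65 ± 0.19 on average (adjusted p 4.06e-06). All 3 calls held in every alternative run. At the end of exposure it was 0.81 ± 0.44 (adjusted p 0.296).

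Ager, the receptor, and Emp2 were raised together by a smaller amount. Ager had 13.9 to 163 CPM (median 83.8) in the 23 tumors at 7 months, and 12 of all 33 tumors lay above the 39 lungs, whose highest was 90.5. Most tumors thus overlapped the lungs. It was higher than in the own lung in 14 of 16 mice, by 0.81 ± 0.21 at 7 months (adjusted p 0.00641) and 0.85 ± 0.16 on average (adjusted p 0.000286). Emp2 ran from 183 to 819 CPM in the lungs and from 210 to 1669 in the tumors, with 15 of 33 tumors above every lung. It was higher in 14 of 16 mice, by 0.93 ± 0.24 at 7 months (adjusted p 0.00542) and 0.93 ± 0.18 on average (adjusted p 0.000322). The 7-month and average calls of both genes held in every alternative. At 3 months Ager was at 1.01 ± 0.32 (adjusted p 0.0335), a call lost without any of the 4 mice of that time (0.76 to 1.19, adjusted p 0.0598 to 0.19), with total counts, without the block and with each tumor on its own.

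Pdpn varied widely among tumors. It ran from 14.4 to 222 CPM in the lungs and from 6.59 to 877 in the tumors at 7 months, where 8 of 23 tumors lay above and 6 below all lungs of that time. The average change was 0.96 ± 0.25 (adjusted p 0.00455), with higher values in 15 of 16 mice and ratios from 0.312 to 6.81. No single time passed, at 0.79 ± 0.35 for 7 months (adjusted p 0.0828). Without the mouse of 7-month lung replicate 9, whose ratio was 0.312, the 7-month change was 1.07 (adjusted p 0.00917) and that at 3 months had an adjusted p of 0.0385.

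Clic5 was higher by 0.45 ± 0.16 at 7 months (adjusted p 0.0314) and 0.31 ± 0.12 on average (adjusted p 0.0352). It ran from 181 to 945 CPM in the lungs and from 282 to 2126 in the tumors, 9 of which lay above every lung. These calls were lost in several settings, among them total counts (0.20 and 0.08), which moved the median of all genes by -0.25 at 7 months and by -0.23 on average. They were also lost without single mice, those of 7-month lung replicates 1, 2, 4, 5 or 6 for both calls and that of end-of-exposure lung replicate 9 for the average (adjusted p 0.0529 to 0.0795). Akap5 was at 0.17 ± 0.15 on average (95% interval -0.13 to 0.47, adjusted p 0.377). Its 4 tumors at the end of exposure had 242, 311, 98.4 and 275 CPM, against 42.3 to 178 in the lungs of that time, and its change there was 0.92 ± 0.36 (adjusted p 0.134).

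**Figure D3:**
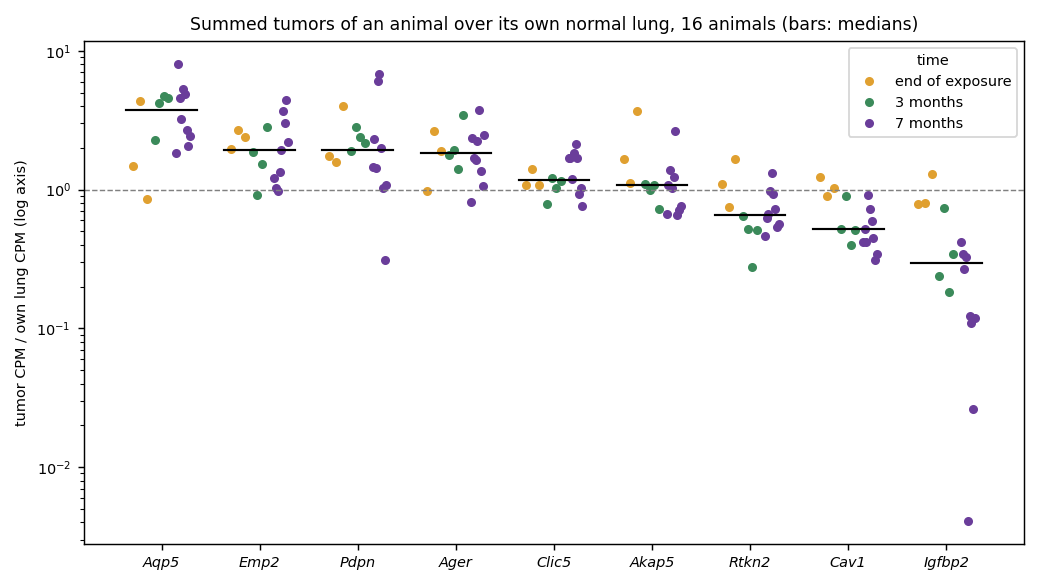
Ratio of the CPM of the summed tumors of a mouse to the CPM of its own normal lung, on a log axis, for each gene and each of 16 mice, colored by time. Horizontal bars are medians over the mice, from 3.73 for Aqp5 to 0.298 for Igfbp2, and the dashed line marks equal levels.

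Igfbp2 showed the deepest fall. The 10 lungs at 7 months ran from 55.4 to 147 CPM, and the 23 tumors from 0.345 to 66.4 (median 11.6). Of those tumors 22 lay below every lung of that time, and 18 of all 33 tumors lay below all 39 lungs. The 6 tumors at 3 months had 18.2 to 124 (median 22.8), and the 4 at the end of exposure had 74.3, 110, 52.6 and 65.6, within the range of their lungs. At 7 months the change was -2.90 ± 0.51 (adjusted p 0.000528), with lower values in 9 of 9 mice and ratios from 0.0041 to 0.417. The average was -2.06 ± 0.37 (adjusted p 0.000226), lower in 15 of 16 mice. Both calls held in every alternative. At 3 months it was -1.63 ± 0.70 (adjusted p 0.106), a value that passed with DESeq2, with each tumor on its own and without the mouse of 7-month lung replicate 5 (adjusted p 0.0339 to 0.0434), and at the end of exposure -0.10 ± 0.77 (adjusted p 0.966). The same gene was thus higher in normal-appearing lung at 7 months than at baseline and lower in tumors than in that lung, and these comparisons share the 7-month lungs.

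Cav1 and Rtkn2 fell less. Cav1 ran from 196 to 681 CPM in the lungs at 7 months and from 76.3 to 371 in the tumors, 14 of 23 of which lay below all those lungs. The change was -1.02 ± 0.17 at 7 months (adjusted p 0.000247), lower in 9 of 9 mice, and -0.78 ± 0.12 on average (adjusted p 7.43e-05). Both held in every alternative. At the end of exposure its 4 tumors had 784, 453, 363 and 324 CPM, within or above the 157 to 506 of the lungs, and the change was 0.06 ± 0.28 (adjusted p 0.943).

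Rtkn2 ran from 25 to 98.5 CPM in the lungs at 7 months and from 5.04 to 70.1 in the tumors, 9 of 23 of which lay below those lungs. It was lower by 0.52 on average (-0.52 ± 0.13, adjusted p 0.00295), in 13 of 16 mice, and this call held in every alternative. The 7-month call (-0.48 ± 0.17, adjusted p 0.0348) was lost with no filter, without the block and with each tumor on its own. It was lost as well without the mice of 7-month lung replicates 1, 2, 3, 8, 9 or 10 (adjusted p 0.0583 to 0.087). At 3 months Cav1 was at -0.85 ± 0.25 and Rtkn2 at -1.10 ± 0.26 (adjusted p 0.0245 and 0.00981), lower in 4 of 4 mice each. Both of these calls were lost without the block, that of Cav1 without the mice of 3-month lung replicates 1, 3 or 8 (adjusted p 0.0799 to 0.146), and that of Rtkn2 without that of replicate 3 (adjusted p 0.0795).

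Whether the tumor effect itself differed between 7 months and both earlier times was tested across all genes. None of the 9 passed, and neither did any of the 15457 genes by edgeR or limma-voom (0.00%; 829 at an unadjusted p under 0.05), while DESeq2 called 6 genes, none of the 9 among them. Igfbp2 had the lowest value, -2.04 ± 0.72 (unadjusted p 0.0121, adjusted p 0.894), followed by Cav1 at -0.62 ± 0.25 (unadjusted p 0.0222, adjusted p 0.904). A deeper fall at 7 months is therefore not shown for either gene.

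Tumors of a mouse differed among themselves. The mouse with the most tumors had 7 at 7 months, and Pdpn ran from 6.59 to 217 CPM among them, a span of 32.9-fold, while its own lung had 64.3. Over the same 7 tumors Aqp5 ran from 493 to 1013 CPM, a span of 2.06-fold, all above its lung at 279. Cav1 ran from 92.2 to 175, all below its lung at 305, and Igfbp2 from 5.36 to 22.3, all below its lung at 112. Rtkn2 spanned 6.18-fold and Ager 2.92-fold. The 2 tumors with ADC in their titles, a term that the labels do not define, were at 528.5 and 505 CPM for Aqp5, and at 6.59 and 117 for Pdpn. The lower of these Pdpn values was the lowest of all tumors, and its tumor came from the mouse with 7 tumors. Among those 7 it was also the lowest in Ager (51.4 CPM), Cav1 (92.2), Rtkn2 (8.59), Clic5 (333) and Akap5 (42.8). This ADC tumor thus set the low end of the spans of Pdpn, Rtkn2 and Ager, but not of Aqp5 or Igfbp2.

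The list of 20 other alveolar type 1 markers was divided in tumors as well, with 7 higher and 7 lower on average and a median of -0.15, beside -0.01 over all genes. Sec14l3 fell by 2.35, Cyp2b10 by 1.73, Sema3e, a guidance protein, by 1.27 and Limch1 by 0.71, with adjusted p from 1.85e-06 to 0.000274. Ndnf, a secreted protein, was higher at 7 months (1.29 ± 0.25, adjusted p 0.00088). The summed level of the list ran from 5000 to 7028 CPM in 7-month lungs and from 2110 to 6271 in 7-month tumors, overlapping in part. In the YAP, TAZ and TEAD list 2 of 13 were higher and 2 lower on average. Ankrd1, a target of the pathway, fell by 2.46 ± 0.28 (adjusted p 4.18e-06), and the factor Tead2 by 0.54 ± 0.11 (adjusted p 0.000823). Cyr61, another target, and the coactivator Wwtr1 were the higher genes (0.73 and 0.38), and neither call held with total counts alone (adjusted p 0.0616 and 0.33).

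Alveolar type 2 and transitional genes were higher in the same tumors. Of 15 alveolar type 2 markers 13 rose and 0 fell on average by edgeR, DESeq2 and limma-voom (median 1.72), among them Lamp3 (2.80), Sftpc, surfactant protein C (2.08), and Slc34a2, a phosphate carrier (1.92), with adjusted p of 7.84e-06 or less. The summed level of the list was 14180 to 314000 CPM in 7-month tumors against 15450 to 66700 in the lungs of that time. Of 13 transitional genes 9 rose and 0 fell by edgeR (median 0.76; DESeq2 called 1 lower, limma-voom 0), among them Clu (2.32), Hbegf (1.28), Lgals3 (1.15) and Cdkn1a (1.14), with adjusted p of 8.1e-05 or less. Their summed level was 1545 to 10110 CPM in 7-month tumors and 1088 to 1927 in the lungs.

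Markers of several other cells were lower in tumors. Of 12 endothelial markers 7 fell and 2 rose on average (median -0.64), with Vwf at -1.53, Egfl7 at -1.18 and Kdr at -0.77, Emcn at 1.30 (adjusted p of 2.22e-05 or less for these 4) and Pecam1 at 0.21 (adjusted p 0.216). Their summed level was 1387 to 3886 CPM in 7-month lungs and 966 to 2896 in 7-month tumors. All 5 lymphatic endothelial and all 5 mesothelial markers, from cells that also make Pdpn, fell on average (medians -1.08 and -1.84). At the end of exposure, where Pdpn was higher in the tumors of 3 of 3 mice, all 5 mesothelial markers lay above 0 (median 0.85) and 0 passed the test by edgeR, DESeq2 or limma-voom, with 0 at an unadjusted p under 0.05 by edgeR. The mesothelial sum was 100 to 475 CPM in the lungs of that time and 81.4 to 890 in its tumors, and 83 to 327 CPM in 7-month lungs and 2.75 to 133 in 7-month tumors. Of the 5 lymphatic endothelial markers at the end of exposure, 1 lay above 0 (median -1.47) and 2 were lower by edgeR. Their sum was 66.8 to 277 CPM in all lungs of that time and 183 to 417 in its tumors. All 9 airway markers and all 7 heart muscle genes tested fell (medians -3.77 and -4.41). Leukocyte genes were mixed: of 14, 3 rose and 5 fell (median -0.33), with Marco at 2.41 and S100a9 at -1.19. Their summed level was 343 to 861 CPM (median 471) in 7-month lungs and 276 to 2004 (median 525) in 7-month tumors. The median sum was also higher in tumors at the end of exposure (448 against 307) and at 3 months (552 against 380). Of 11 fibroblast and smooth muscle genes 3 rose and 7 fell (median -1.14). No gene of these lists was at 0 in every library of a group. Of the 7 adipocyte genes 6 fell (median -3.98), and 2 were at 0 in all tumors at the end of exposure. The part of these cells in the changes of the 9 genes was not tested.

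The 9 genes varied together more closely among normal lungs than among tumors. After the group means were removed, the 36 pairs of genes had a median Pearson r of 0.59 over the 39 lungs (-0.24 to 0.77), with 22 pairs over 0.5. Over the 33 tumors the median was 0.36 (-0.25 to 0.84), with 12 pairs over 0.5 and 27 above 0. Tumors of a mouse share that mouse, every library shares its RNA input across genes, and no test was made, so these are descriptions. Aqp5 was the exception in lung, at 0.17 with the mean of the other 8 genes, where Ager had 0.86 and Cav1 0.83. In tumors Ager and Aqp5 had an r of 0.84, Cav1 and Rtkn2 0.69, and Igfbp2 and Rtkn2 0.63. Some pairs close in lung had values near 0 in tumors: Ager with Cav1 had 0.69 in lung and 0.09 in tumors, Rtkn2 with Emp2 0.77 and -0.11, and Ager with Igfbp2 0.72 and -0.10. Other genes were positive with both Ager and Cav1 in tumors: Clic5 had 0.70 with Ager and 0.52 with Cav1, and Akap5 had 0.45 and 0.53. Akap5 was above 0 with each of the other 8 genes, from 0.30 with Aqp5 to 0.55 with Rtkn2.

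**Figure D4:**
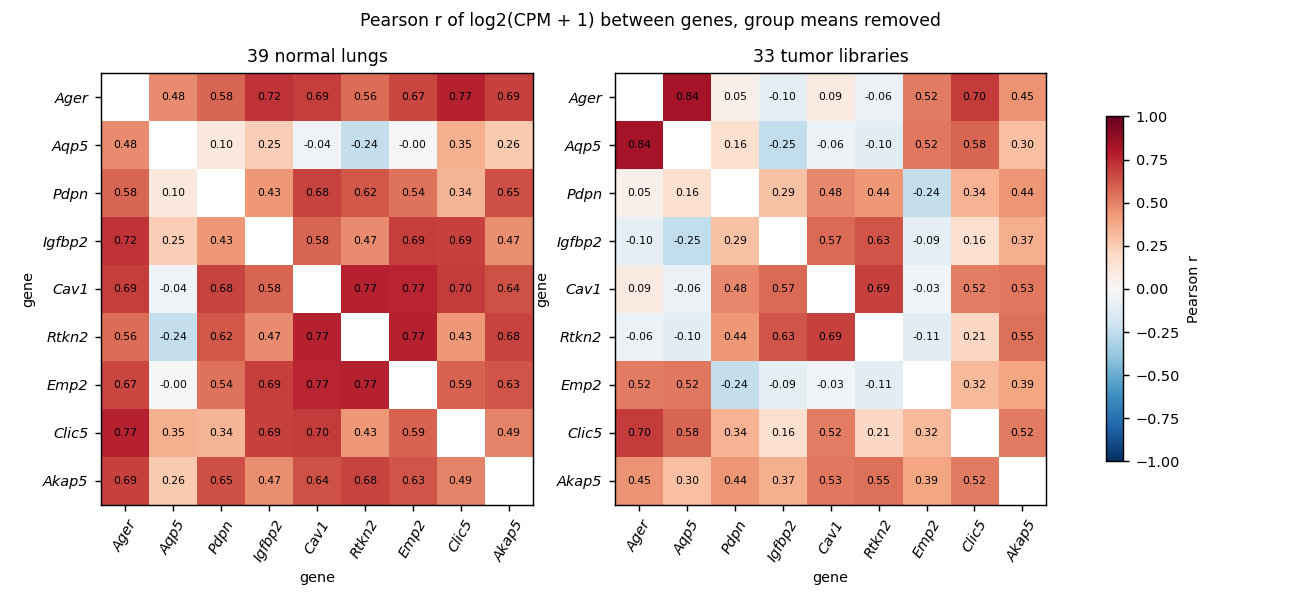
Pearson r of log2(CPM + 1) between pairs of the 9 genes after group means were removed, in 39 normal lungs (left) and 33 tumor libraries (right), on a color scale from -1 to 1. In lung all pairs but those of Aqp5 are above 0.3, and in tumors Ager with Aqp5 has 0.84, Igfbp2, Cav1 and Rtkn2 have 0.57 to 0.69 among themselves, and pairs across these run from -0.25 to 0.09 while Akap5 is above 0 with every gene.

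The 9 genes also differed in their relation to other markers. Over the 33 tumors the mean of the alveolar type 2 markers had an r of 0.72 with Aqp5, 0.70 with Ager and 0.60 with Emp2, and of -0.37 with Cav1, -0.36 with Pdpn, -0.35 with Igfbp2 and -0.34 with Rtkn2. The mean of the endothelial markers had an r of 0.75 with Cav1, 0.65 with Igfbp2 and 0.55 with Rtkn2, and of -0.02 with Aqp5 and 0.17 with Ager. In the 39 lungs 8 of the 9 genes had an r of 0.65 to 0.91 with the endothelial mean, the exception being Aqp5 at -0.07. Aqp5 had 0.52 with the transitional genes in lung and 0.76 in tumors.

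Across the 39 lungs the mean of the 9 genes was set against 7 marker lists and the depth, 8 relations in all, each with group means removed. It rose with the endothelial markers (Pearson r 0.90, Spearman correlation 0.89) and with the alveolar type 2 markers (0.80 and 0.83), each with a permutation p of 1e-05, the smallest that the 100000 resamples can give (adjusted p 4e-05 for both). Within the 4 time groups r was 0.83 to 0.95 for the endothelial list and 0.81 to 0.89 for the alveolar type 2 list. Without the 2 lungs farthest from the median of the marker list r was 0.88 and 0.79. Cav1, abundant in endothelium, is part of the mean and on its own had an r of 0.91 with the endothelial list. The relation without Cav1 was not tested. The mean and the lists come from the same libraries, and the part of the cell mix was not tested. The leukocyte list had 0.60 and 0.63 (permutation p 0.00014 and 9e-05, adjusted 0.000373 and 0.00024), 0.32 to 0.79 within the groups, and 0.72 without the farthest 2.

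The airway list went the other way, at -0.55 and -0.56 (permutation p 0.00082 and 0.00053, adjusted 0.00164 and 0.00106), and -0.52 without the farthest 2 lungs. Within groups it was -0.09 at baseline and -0.66 to -0.78 at the later times. The fibroblast and smooth muscle list had 0.46 and 0.44 (permutation p 0.00528 and 0.00906, adjusted 0.00845 and 0.0145). Without the 2 farthest lungs r was 0.32 and did not pass (permutation test, adjusted p 0.119). Without the Myh6-rich lungs r was 0.53 (permutation test, adjusted p 0.00411). Within groups r ran from 0.00 at 7 months to 0.81 at 3 months. Heart muscle (-0.06 and -0.04), adipocyte (0.05 and 0.01) and depth (0.09 and -0.05) had permutation p of up to 0.976 (adjusted 0.764 to 0.976). Within groups the heart muscle list ran from -0.42 to 0.52, the adipocyte list from -0.18 to 0.43 and depth from -0.62 to 0.65.

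**Figure D5:**
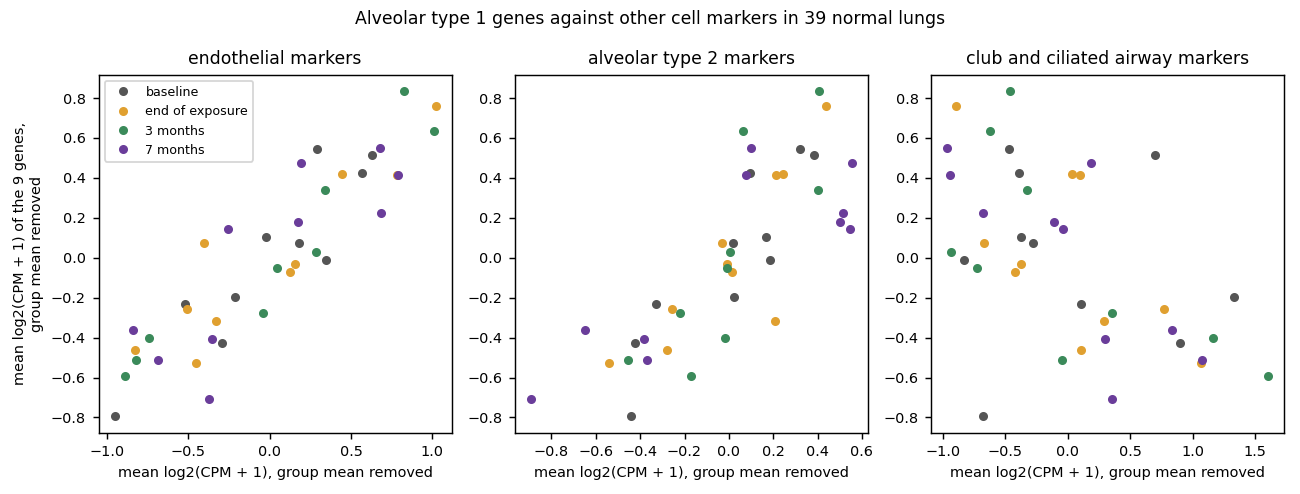
Mean log2(CPM + 1) of the 9 genes (vertical axis) against that of the endothelial, alveolar type 2 and airway markers (horizontal axes) in 39 normal lungs, with the mean of each time group removed and points colored by time. The points rise with the endothelial (r 0.90) and alveolar type 2 lists (r 0.80) and fall with the airway list (r -0.55).

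The genes most like Ager over the 39 lungs, of 11308 compared at a mean of at least 5 CPM, were Ptprm (r 0.84), Rras, Snrk, Napsa, Phactr1, Slc34a2, Lrp5 and Ptprg (r 0.82). Napsa and Slc34a2 are alveolar type 2 markers of the lists above. For the mean of the 9 genes they were Phactr1 (r 0.92), Snrk, Dlc1, Pcdh1, Flt1, Tek, Prex2 and Tspan7 (r 0.90), among which Flt1 and Tek are receptors of endothelial cells. Over the 33 tumors the genes most like Ager, of 10979 compared, included 2610528J11Rik (r 0.89), Sh3d19, Apoa1bp, Pip5k1b, Tnfaip1, Sftpb and Bcam (r 0.85). For the mean they were Arhgef26 (r 0.86), Krt80, Prex2, Klf4, Cyth3, Efnb2, Foxf1 and Cdc42ep1 (r 0.79). Of the 8 genes nearest to Ager, none was in both sets, and Prex2 was the gene in both sets for the mean.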

How the data were processed

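The deposited table holds counts of reads for each amplicon, 1 per gene, from Ion AmpliSeq Transcriptome libraries of 10 ng of total RNA read on the Ion Proton with 8 libraries a chip, per the labels' protocols. Aligner, counting program and build: not given in the sources used here. Of 74 count columns, 72 matched a sample and 2 were not used, and 27 gene names turned into dates were restored. Tests used edgeR 4.0.16 under R 4.3.3 (TMM, filterByExpr by group, robust quasi-likelihood fits, Benjamini-Hochberg over all genes, threshold 0.05). The 39 lungs entered 1 fit of 4 time groups (14907 genes); tumor counts were summed per mouse and set against its own lung with the mouse as a block (16 mice, 15457 genes). SE is the size of the log2 fold change divided by the square root of F. Mice were paired by the animal names. The deviations of tumor and own lung correlated with a median r of 0.28 (-0.19 to 0.53), over 0.1 in 12 of 16. Tumors were not set against lungs of other mice, so this r does not test the pairing. Correlations used log2(CPM + 1), with a pseudocount of 1, and 100000 resamples within time groups. No library repeated another of its group (smallest chi-square per gene 30.3), and libraries of different groups were not compared in this way. That lungs came from separate mice is given by the animal names. DESeq2 1.42.0, limma 3.58.1 (voom), other scalings, filters and left-out libraries were the alternatives. The fits were tested on simulated counts. The genes, lists and alternatives were chosen with earlier results of these data known. Named were all 9 genes in every comparison, of each other list up to 4 called genes of smallest p with Sftpc, Pecam1, Myh6 and Ptprc, and the 8 genes of highest r, of which 1 is not reported here.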

Additional observations from a re-analysis of the deposited data

Results flagged for a closer look

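Of 54 groups of 4 to 10 libraries examined (9 genes in 6 groups), 4 held a library set apart from the rest of its group by Dixon's criterion. Chance sets apart about 1 group in 20 if values are normally distributed, and the criterion was applied to CPM without logs. The 4 of 54 are therefore not shown to be more than chance gives. For Ager it was tumor replicate 3 at the end of exposure, at 96.1 CPM against 55.3 for the next. For Pdpn it was 3-month lung replicate 5, at 222 CPM against 115. For Emp2 it was end-of-exposure lung replicate 2, at 633 CPM against 363. For Clic5 it was end-of-exposure lung replicate 9, at 800 CPM (799.6) against 529. All 4 were the highest of their group.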

How the results depend on the processing

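Over 3348 values of the 9 genes under alternatives, 75 changed a call and 0 called values changed direction; 101 values that were called in neither fit changed sign and were counted as unchanged. The number of genes called at 3 months in lung became 2 with DESeq2, which called 388 of all 14907 genes there. At 7 months it became 1 with total counts alone, with no filter, with limma-voom and once the 5 Myh6-rich lungs were left out. In tumors it became 1 at the end of exposure with DESeq2, which called 1975 of all 15457 genes there. Without the replicate block, that is without pairing each tumor with the lung of its mouse, 1 of 9 was called at 3 months in place of 4, Ager, Cav1, Rtkn2 and Clic5 lost calls named above, and Pdpn at 7 months was called (1.19, adjusted p 0.00954). Leaving out each lung in turn gave 1 to 2 calls at 3 months and 1 to 3 at 7 months, and 0 to 0 in the other 3 lung comparisons. Leaving out each mouse gave 1 to 5 calls in tumors at 3 months, 5 to 7 at 7 months, 7 to 8 on average and 0 to 0 in the other 2. The relation with fibroblast and smooth muscle markers dropped to 0.321 without the 2 farthest lungs. Total counts alone moved the median of all genes by -0.32 in tumors at 3 months, -0.25 at 7 months and -0.23 on average. No tumor-bearing mouse had a lung over 300 CPM of Myh6 (0), so that alternative was not run, and the letter comparison was not run without single lungs. Of the other named genes, the adipocyte gene Ucp1 changed direction at 7 months in lung: it was -4.29 against baseline, 0.58 without the Myh6-rich lungs and 0.61 without baseline replicate 1, with a range of -4.87 to 0.61 without single lungs. With 3 and 4 mice at the earlier tumor times, an absent call there does not show an absent change.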
